A study of Homo sapiens with 4 samples.

Results

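The transcripts described here are those of 7 basement membrane genes in HCT116, a cell line from a human colorectal carcinoma: the laminin chains LAMA3, LAMA5, LAMB1, LAMB2, LAMB3 and LAMC1, and COL17A1, the α chain of collagen XVII. These 7 genes were taken by name from the 58735 Ensembl gene identifiers in the expression tables, and all 7 were found. HCT116 cells received either a control small interfering RNA (siRNA) or siRNA against KIF26B, a kinesin family gene, and poly(A) RNA was sequenced 48 h later in 2 libraries per group. The study made this comparison to learn which transcripts follow KIF26B in colorectal cancer cells. The 2 KIF26B siRNA columns are headed K_KD1_2 and K_KD2, and the paper used 2 independent KIF26B siRNAs in other experiments. Which siRNA sequence entered each library is not given in the sources used here. A difference between siRNAs therefore cannot be told apart from one between replicates. Whether the replicates of a group came from separate cultures is not given either. P values thus measure the spread between these libraries, which may be technical or may lie between siRNAs. All 4 libraries are of 1 cell line, sequenced as a bulk population.

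Laminins are the glycoproteins on which a basement membrane is built, the thin sheet of matrix under every epithelium. Each laminin is a trimer of 1 α, 1 β and 1 γ chain, and the chain composition gives it its name and its receptors: LAMA5 pairs with LAMB1 or LAMB2 and with LAMC1 in the laminins of mature epithelium, including the intestinal crypt and villus, whereas LAMA3 and LAMB3 are chains of laminin-332, the anchoring laminin of stratified and glandular epithelia. Collagen XVII is a transmembrane collagen of hemidesmosomes, the junctions that fasten integrin α6β4 and the keratin cytoskeleton to laminin-332.

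The values are FPKM, fragments scaled to the length of the gene and the size of the library. Each gene has 1 length for all its transcripts, and which transcripts were made was not measured. Levels, ratios and shares between genes therefore hold only at those lengths. Library scale lay between 18068934 and 24673739 fragments. The 2 control libraries differed from each other by 2.37 times the squared difference that read counting alone gives, and the 2 KIF26B siRNA libraries by 16.3 times. Mitochondrial transcripts made up 6.82%, 6.84%, 9.59% and 7.71% of the reads in control replicate 1, control replicate 2, KIF26B siRNA replicate 1 and KIF26B siRNA replicate 2. Values for 4 libraries are given in that order throughout. KIF26B itself was low, at 0.110, 0.205, 0.140 and 0.0307 FPKM, or 31, 73, 43 and 8 reads, so the library labelled KIF26B siRNA replicate 1 held KIF26B within the control range and the library labelled replicate 2 held it below both controls. The colorectal epithelium markers EPCAM, CDH1, KRT8, KRT18, KRT19 and CDX2 were the 6 of 10 with a mean of at least 1 FPKM, and CDX1 was at 0 in every library. The summed level of the 10 was 1564 to 1696 FPKM, against 7.18 to 10.2 FPKM for 10 fibroblast markers, 3.80 to 6.15 FPKM for 7 endothelial markers and 0.584 to 1.06 FPKM for 8 immune markers. Means of at least 1 FPKM were found there for COL1A1, ACTA2 and ESAM, while EMCN and CD3E were at 0 throughout.

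Promoter sequences are shown for the members whose read rates lay farthest from those of the controls in at least 1 library, as ratios given below, LAMA3, LAMA5, LAMB3 and COL17A1. They are RefSeq windows of GRCh38.p14, 250 bases before to 50 bases after a transcription start site, written 5′ to 3′ on the strand of the gene. Capitals mark matches to the AP-1 motif TGANTCA and to the SP1 motif GGGCGG on either strand, where GGGCGG reads as CCGCCC on the other one. The motifs do not overlap each other in these 4 windows.
LAMA3, chr18:23872770-23873069, plus strand: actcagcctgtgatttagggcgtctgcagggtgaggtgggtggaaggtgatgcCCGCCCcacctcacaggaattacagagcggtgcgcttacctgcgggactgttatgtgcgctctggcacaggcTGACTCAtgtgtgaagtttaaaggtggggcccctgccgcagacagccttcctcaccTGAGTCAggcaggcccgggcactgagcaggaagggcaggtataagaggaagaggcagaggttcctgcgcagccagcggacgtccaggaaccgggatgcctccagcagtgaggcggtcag
LAMA5, chr20:62367263-62367562, minus strand: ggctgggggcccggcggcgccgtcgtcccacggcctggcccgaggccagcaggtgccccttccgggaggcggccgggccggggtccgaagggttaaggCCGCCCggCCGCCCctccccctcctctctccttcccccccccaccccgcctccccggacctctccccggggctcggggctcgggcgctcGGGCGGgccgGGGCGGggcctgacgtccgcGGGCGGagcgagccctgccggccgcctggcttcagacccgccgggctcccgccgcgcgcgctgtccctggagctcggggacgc
LAMB3, chr1:209651325-209651624, minus strand: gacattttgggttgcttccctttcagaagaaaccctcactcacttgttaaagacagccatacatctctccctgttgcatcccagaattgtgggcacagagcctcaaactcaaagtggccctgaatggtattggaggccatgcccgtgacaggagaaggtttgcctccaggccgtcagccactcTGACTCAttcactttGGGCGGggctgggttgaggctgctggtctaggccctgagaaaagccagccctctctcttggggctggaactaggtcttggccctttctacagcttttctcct
COL17A1, chr10:104085831-104086130, minus strand: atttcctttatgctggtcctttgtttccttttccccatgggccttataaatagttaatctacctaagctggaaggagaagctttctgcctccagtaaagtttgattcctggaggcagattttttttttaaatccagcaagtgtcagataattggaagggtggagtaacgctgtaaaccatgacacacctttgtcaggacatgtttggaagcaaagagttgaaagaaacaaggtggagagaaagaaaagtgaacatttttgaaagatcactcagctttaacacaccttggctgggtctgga
The LAMA3 window held 2 AP-1 matches, which begin 125 and 69 bases before the start site, and 1 SP1 match. It covers 1 start site, whereas FPKM is a value for the whole gene, and any other LAMA3 start was not examined. RefSeq gives 3 start sites for LAMB3, and the window shown, with 1 AP-1 match that begins 67 bases before the start, is the only one of the 3 with such a match. No AP-1 match lay in the windows of LAMA5, LAMB1, LAMB2, LAMC1 or COL17A1, whereas 7.71% of 35116 RefSeq windows of the same length held one. SP1 matches numbered 5 in LAMA5, 4 in LAMB1, 3 in LAMC1, 1 each in LAMB2 and each LAMB3 window, and 0 in COL17A1, and 45.0% of all windows held at least 1. The TEAD motif GGAATG, searched on both strands, was in none of the 9 member windows and in 14.0% of all windows. GC content of the windows ran from 40.7% in COL17A1 and 61.7% in LAMA3 to 79.0% in LAMC1 and 82.7% in LAMA5, around a median of 58.7% over all windows. A match to these letters is a description of the sequence, and binding was not measured.

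In the control libraries, LAMA5 and LAMB3 were the most abundant of the 7 transcripts and COL17A1 the least. Control levels were 47.4 and 49.2 FPKM for LAMA5, 47.1 and 44.6 for LAMB3, 31.2 and 30.8 for LAMC1, 28.2 and 28.8 for LAMB2, 8.31 and 8.26 for LAMB1, 2.92 and 2.53 for LAMA3 and 0.353 and 0.384 for COL17A1. Neighbours in this order did not overlap between the controls, although LAMA5 and LAMB3 came within 1 FPKM of each other. Under KIF26B siRNA LAMB2 was the lowest of LAMA5, LAMB3 and LAMB2 in each library, whereas LAMA5 and LAMB3 changed order between the libraries. LAMB1, LAMA3 and COL17A1 stayed the lower 3 in each library, with COL17A1 above LAMA3 in KIF26B siRNA replicate 1.

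**Figure D1:**
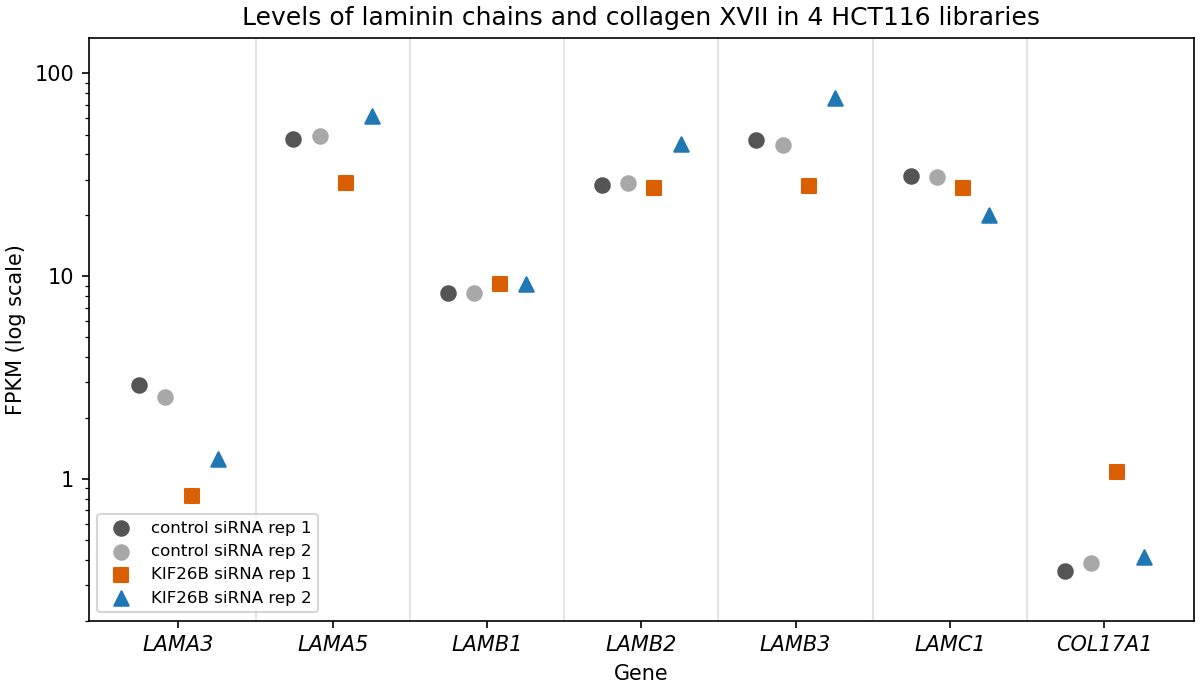
FPKM (log scale) of the 7 genes in each of the 4 libraries, 1 point per library. LAMA3 sat lower in both KIF26B siRNA libraries, at 0.823 and 1.26 FPKM, whereas the 2 KIF26B siRNA points of LAMA5, LAMB2 and LAMB3 lay on either side of the controls.

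Against the controls, LAMA3 and LAMC1 were lower in both KIF26B siRNA libraries, and LAMB1 and COL17A1 were higher in both. LAMA5, LAMB2 and LAMB3 were lower in replicate 1 and higher in replicate 2. Of these shifts, that of COL17A1 in replicate 2 was within counting error. LAMB1 in both libraries and LAMB2 in replicate 1 lay close to the controls. Of the 6 members whose mean reached 1 FPKM, 2 lay below both controls in both libraries, beside 27.8% of the 14523 genes that passed the same filter, and 1 lay above in both, beside 24.9%. Another 3 lay below the controls in replicate 1 and above them in replicate 2, a pattern of 14.0% of all genes tested, and 0 had the reverse pattern, against 12.3%. The groups were tested with limma on log2(FPKM + 1), a scale that understates the change of low genes. LAMA3 was the 1 member lower at an unadjusted limma P below 0.05, beside 8.68% of all genes tested, and 0 members were higher, beside 7.74%. After Benjamini-Hochberg adjustment 0 members passed 0.05, as did 0.0% of the 14523 genes, of which 1261 were lower and 1124 higher at an unadjusted limma P below 0.05. limma-voom on recovered reads likewise called 0 genes after adjustment, with 1470 lower and 1132 higher before it. The median log2 difference was −0.09 over the 6 members and −0.01 over all genes tested. For any single gene, an exact permutation test of 2 against 2 libraries cannot give a two-sided p below 0.333. In bulk RNA, less RNA per cell and fewer cells that make a transcript cannot be told apart.

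LAMA3 encodes the α3 chain of laminin-332, which carries the globular domain that integrins bind, and was the member with the largest group difference. The gene lies on chromosome 18 from 21269417 to 21536186 of GRCh37, on the plus strand. LAMA3 measured 2.92, 2.53, 0.823 and 1.26 FPKM, from 840, 915, 258 and 334 reads at a gene length of 14678 bases. Both KIF26B siRNA libraries lay below both controls, with no overlap, and replicate 1 was the lower of the pair. In replicate 1, KIF26B itself was within the control range, at 43 reads against 31 and 73. It had 8 reads in replicate 2. The group means of LAMA3 were 2.72 ± 0.275 FPKM in controls and 1.04 ± 0.309 FPKM under KIF26B siRNA (SD, n = 2 each). The limma difference was −0.87 on the log2(FPKM + 1) scale (SE 0.16, unadjusted P = 0.00579, adjusted p = 0.242), and −1.42 by limma-voom on the reads, where no pseudocount of 1 FPKM is added (adjusted p = 0.161). Read rates, the reads divided by library scale, were 0.305 times the pooled controls in replicate 1 (95% exact interval 0.266 to 0.348) and 0.467 times in replicate 2 (0.414 to 0.525). These intervals, and those below, cover counting error alone. The control libraries also differed for this gene, with a rate ratio of replicate 2 to replicate 1 of 0.867 (0.788 to 0.953), and both KIF26B siRNA ratios were farther from 1 than that.

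LAMA5, the α5 chain of laminin-511 and laminin-521 and the widest-spread laminin α chain in adult epithelia, lies on chromosome 20 from 60883011 to 60942368 of GRCh37, on the minus strand. Its levels were 47.4, 49.2, 29.0 and 61.9 FPKM, from 13303, 17336, 8850 and 15982 reads. Replicate 1 was the lowest of the 4 libraries and replicate 2 the highest, so the KIF26B siRNA group spanned the controls. Means of 48.3 ± 1.23 and 45.4 ± 23.3 FPKM (SD, n = 2 each) differed by −0.18 in log2 (SE 0.39, limma adjusted p = 0.839). The read rate was 0.599 times the controls in replicate 1 (0.585 to 0.613) and 1.28 times in replicate 2 (1.25 to 1.30), a 2.14-fold distance between the 2 KIF26B siRNA libraries against 1.04-fold between the controls. A distance at least as large on the log2(FPKM + 1) scale was seen for 4.26% of the genes tested. Exons of LAMA5 share 244 bases with ADRM1 and 118 bases with LAMA5-AS1, both on the opposite strand, and whether the counting used strand is not stated. ADRM1 held 55.5, 54.7, 58.8 and 57.9 FPKM, and LAMA5-AS1 held 1.45, 2.31, 0.167 and 2.82 FPKM, lowest and highest in the same libraries as LAMA5.

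LAMB1, the β1 chain that joins LAMA5 and LAMC1 in laminin-511, varied least among the 7. The gene runs from 107564244 to 107643658 of chromosome 7 in GRCh37, on the minus strand. Its level was 8.31, 8.26, 9.11 and 9.15 FPKM, slightly above both controls in both KIF26B siRNA libraries. The means were 8.28 ± 0.0396 and 9.13 ± 0.0302 FPKM (SD, n = 2 each), a log2 difference of 0.13 (SE 0.11, limma adjusted p = 0.595). Among all genes tested, 98.7% had KIF26B siRNA libraries at least as far apart as those of LAMB1. Exons of LAMB1 share 300 bases with DLD on the opposite strand, a mitochondrial dehydrogenase subunit at 21.4, 20.5, 24.6 and 19.0 FPKM. The read number behind LAMB1 is known only up to a whole factor, and at a gene length of 8140 bases the rates were 1.10 (1.03 to 1.17) and 1.11 (1.04 to 1.18) times the controls.

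LAMB2, the β2 chain of laminin-521, was on the control level in 1 KIF26B siRNA library and above it in the other. It lies on chromosome 3 from 49158547 to 49170551 of GRCh37, on the minus strand. The 4 libraries gave 28.2, 28.8, 27.3 and 45.0 FPKM, from 3796, 4881, 4010 and 5581 reads. Replicate 1 was just under the controls, with a rate ratio of 0.958 (0.923 to 0.995), and replicate 2 was 1.58 times the controls (1.52 to 1.63). The group means of 28.5 ± 0.457 and 36.2 ± 12.5 FPKM (SD, n = 2 each) differed by 0.29 in log2 (SE 0.27, limma adjusted p = 0.623). The ratio of LAMB2 to LAMB1 was 3.39, 3.49, 3.0 and 4.92, so the chain that distinguishes laminin-521 from laminin-511 was the more abundant of these β chains in every library.

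LAMB3, the β3 chain, which among laminins is known from laminin-332, had the widest spread of the 7 between the KIF26B siRNA libraries. Its place is chromosome 1, 209788215 to 209825770 of GRCh37, minus strand. It measured 47.1, 44.6, 27.9 and 75.9 FPKM, from 4334, 5157, 2794 and 6429 reads. Replicate 1 was lowest and replicate 2 highest, as for LAMA5, and the group means of 45.8 ± 1.78 and 51.9 ± 33.9 FPKM (SD, n = 2 each) differed by 0.01 in log2 (SE 0.51, limma adjusted p = 0.994). The rate was 0.610 times the controls in replicate 1 (0.585 to 0.637) and 1.66 times in replicate 2 (1.61 to 1.71). Between the KIF26B siRNA libraries this is a 2.72-fold distance, and 1.66% of all genes tested lay at least as far apart on the log2(FPKM + 1) scale. LAMA3, the α chain of the same trimer, was at its lowest in replicate 1 as well but did not exceed the controls in replicate 2. The ratio of LAMB3 to LAMA3 was accordingly 16.2, 17.6, 33.9 and 60.3, at gene lengths of 4688 and 14678 bases. A shorter LAMA3 transcript would lower this ratio, and transcript forms were not measured.

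LAMC1, the γ1 chain shared by most laminins outside laminin-332, lies on chromosome 1 from 182992555 to 183114727 of GRCh37, on the plus strand. It gave 31.2, 30.8, 27.1 and 20.1 FPKM, from 5148, 6397, 4873 and 3052 reads. Both KIF26B siRNA libraries were under both controls, and here replicate 2 was the lower one, at a rate of 0.648 times the controls (0.623 to 0.675) against 0.875 (0.846 to 0.905) in replicate 1. The means were 31.0 ± 0.252 and 23.6 ± 4.98 FPKM (SD, n = 2 each), a log2 difference of −0.39 (SE 0.18, limma adjusted p = 0.373). LAMB3 stood at 1.51, 1.45, 1.03 and 3.78 times LAMC1, and LAMA5 at 1.52, 1.59, 1.07 and 3.08 times LAMC1.

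COL17A1, whose product is also known as BP180 and crosses the membrane at hemidesmosomes, had the lowest mean level of the members in each group and was detected in all 4 libraries. It lies on chromosome 10 from 105791044 to 105845638 of GRCh37, on the minus strand. Levels of 0.353, 0.384, 1.08 and 0.415 FPKM came from 49, 67, 163 and 53 reads. Replicate 1 stood apart, at 2.91 times the control rate (2.28 to 3.73), while the ratio of replicate 2, 1.12 (0.794 to 1.56), was within counting error of 1. Means of 0.369 ± 0.0219 and 0.747 ± 0.470 FPKM (SD, n = 2 each) were under the filter of 1 FPKM, and in the limma fit without a filter the difference was 0.33 in log2 (SE 0.22, adjusted p = 0.699). The order of the KIF26B siRNA libraries was the reverse of that of LAMA5, LAMB2 and LAMB3.

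**Figure D2:**
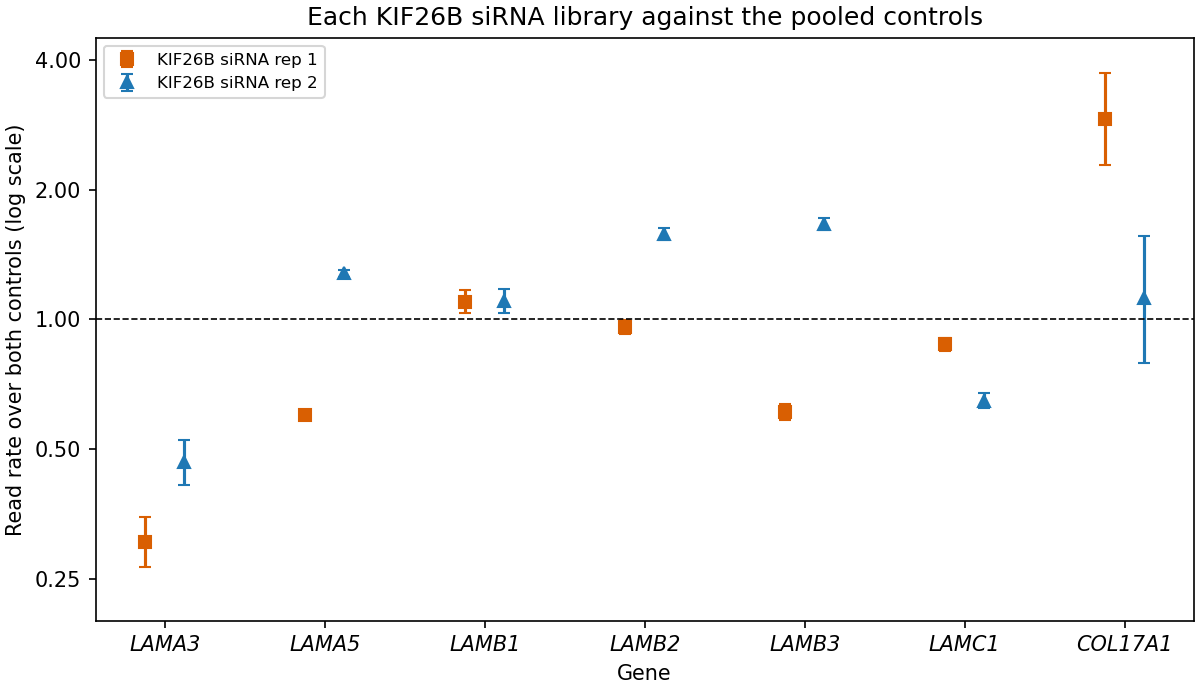
Read rate of each gene in each KIF26B siRNA library divided by that of the 2 controls pooled (log scale), with 95% exact intervals that cover counting error alone; the LAMB1 bars take the read number at a gene length of 8140 bases. LAMA3 lay at 0.305 and 0.467, LAMB3 at 0.610 and 1.66, and COL17A1 at 2.91 and 1.12.

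Because the KIF26B siRNA libraries stood farther apart than the controls, each member was also fitted with 1 of them left out. Without replicate 1, the limma differences were −0.72 for LAMA3, 0.35 for LAMA5, 0.13 for LAMB1, 0.64 for LAMB2, 0.72 for LAMB3 and −0.60 for LAMC1. Without replicate 2, they were −1.03 for LAMA3, −0.72 for LAMA5, 0.12 for LAMB1, −0.06 for LAMB2, −0.70 for LAMB3 and −0.19 for LAMC1. These fits assume that the lone library varies as the controls do. The controls differed by 2.37 times the squared difference of read counting, and the KIF26B siRNA libraries by 16.3 times. A P value from such a fit would thus rest on 1 library with the spread of the other group. LAMA3, LAMB1 and LAMC1 kept their direction in both fits, and LAMA5 and LAMB3 reversed it. LAMB2 was above the controls without replicate 1 (0.64) and close to them without replicate 2 (−0.06). For COL17A1, in the fit without a filter, the differences were 0.05 without replicate 1 and 0.60 without replicate 2.

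**Figure D3:**
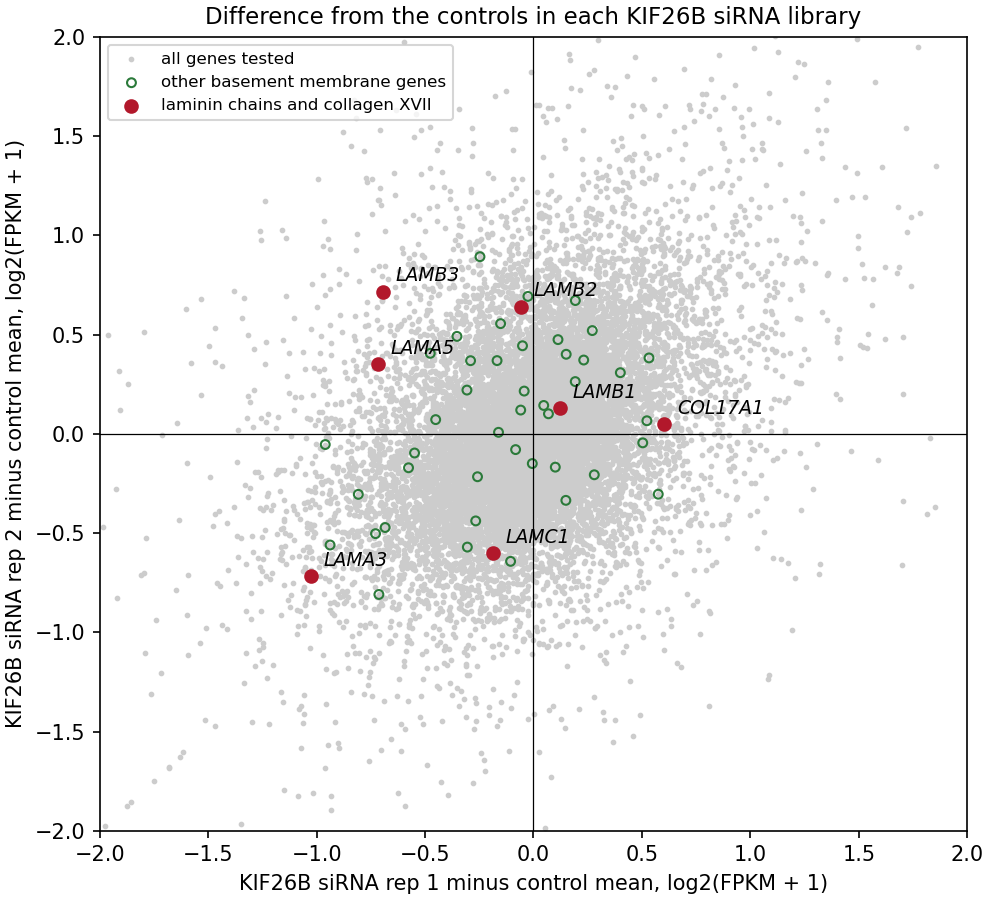
Difference of each KIF26B siRNA library from the control mean on the log2(FPKM + 1) scale, replicate 1 on the x axis and replicate 2 on the y axis, with all genes tested in grey, other basement membrane genes as green rings, the 7 members in red, and points beyond the axis limits not drawn. LAMA3 lay at −1.03 and −0.72, LAMB3 at −0.70 and 0.72, and LAMB1 near the origin at 0.12 and 0.13.

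Base composition moved with the distance between the KIF26B siRNA libraries. In the tenth of tested genes with the highest GC content, the median of replicate 2 minus replicate 1 was 0.12 in log2, against 0.05 in the tenth with the lowest and −0.02 to 0.09 in the others. The longest annotated transcript of LAMA5 has a GC content of 66.4%, at percentile 97.8 of the genes tested, and those of LAMB2 and LAMB3 have 60.3% and 58.9%, at percentiles 86.3 and 82.4. With GC content and gene length removed from each library, replicates 1 and 2 lay at −0.62 and 0.29 from the controls for LAMA5, −0.04 and 0.59 for LAMB2 and −0.69 and 0.66 for LAMB3. Corrected values had opposite signs in the 2 libraries for LAMA5 and LAMB3, while LAMB2 in replicate 1 lay close to the controls. The correction, added after seeing the data, removes a trend over all genes. A bias particular to 1 gene was not tested. For LAMA3 the corrected differences were −1.01 and −0.67, and for LAMC1 −0.19 and −0.55. The part of the mitochondrial share in these differences was not tested.

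Summed over the α and over the β chains, β chain transcripts exceeded α chain transcripts in every library. The α chains together gave 51.0, 52.3, 31.1 and 63.8 FPKM and the β chains 83.6, 81.7, 64.3 and 130.1 FPKM. LAMA5 made up 93.0%, 94.0%, 93.3% and 97.0% of the α chain total, and LAMA3 5.72%, 4.83%, 2.65% and 1.97%. The α3 share was thus lower in both KIF26B siRNA libraries than in both controls, in replicate 1 beside a lower α total and in replicate 2 beside a higher one. LAMB3 was 56.4%, 54.6%, 43.4% and 58.4% of the β chain total, and LAMB1 9.94%, 10.1%, 14.2% and 7.04%. The ratio of LAMA5 to LAMB3 was 1.01, 1.10, 1.04 and 0.815, so LAMB3 exceeded LAMA5 only in KIF26B siRNA replicate 2. Both differed more than 2-fold between the KIF26B siRNA libraries. These totals and shares depend on the 1 length taken for each gene. Transcript levels do not give the amounts of assembled trimer, which were not measured.

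**Figure D4:**
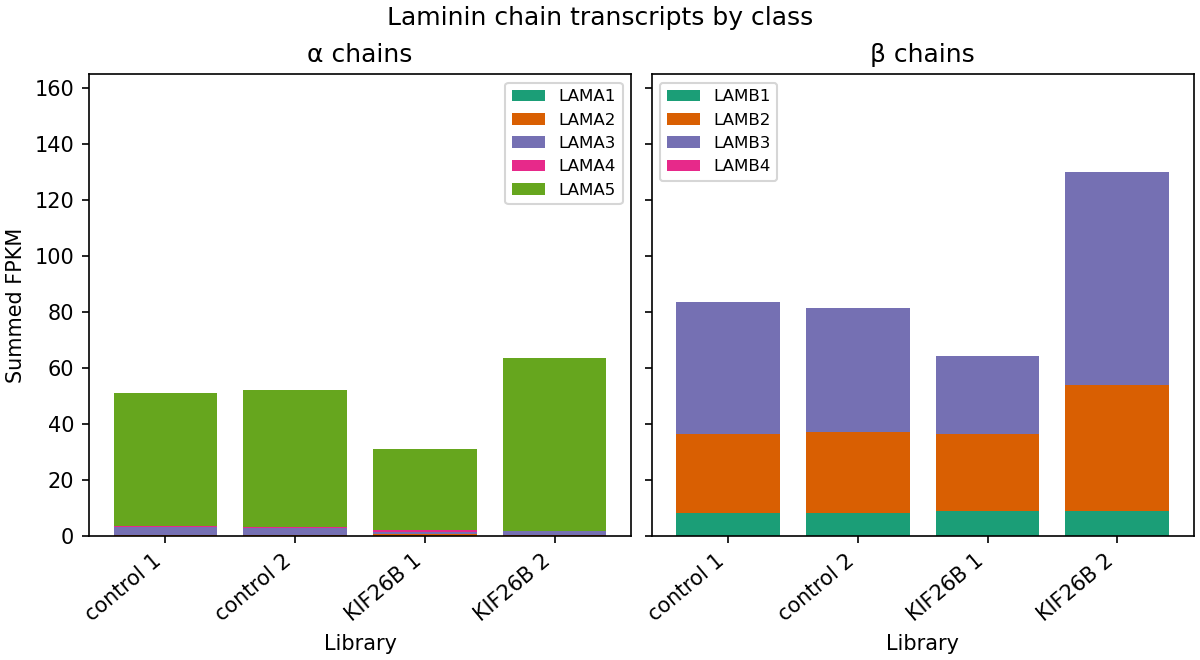
Summed FPKM of all annotated α and β laminin chains in each library, stacked by chain, on one linear axis that starts at 0. The β chain total was 64.3 FPKM in KIF26B siRNA replicate 1 and 130.1 FPKM in replicate 2, around 83.6 and 81.7 FPKM in the controls.

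The genes around the 7 members were described with 5 lists of 70 basement membrane genes, of which 43 had a mean of 1 FPKM or more. Of these 43, 5 were lower and 3 higher at an unadjusted limma P below 0.05, beside 8.68% and 7.74% of all genes tested, and 0 passed after adjustment. Their median log2 difference was 0.04, beside −0.01 over all genes tested. Both KIF26B siRNA libraries were below the controls for 13 genes and above for 11, beside 27.8% and 24.9% of all genes tested. Replicate 1 was below and replicate 2 above for 11, and the reverse held for 5, beside 14.0% and 12.3%.

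Among the 6 other laminin chains, 2 were tested, with 0 lower and 1 higher. The higher one, LAMC3, the γ3 chain, was at 3.31, 2.83, 4.36 and 4.03 FPKM (log2 difference 0.35, limma unadjusted P = 0.0493, adjusted p = 0.304). LAMA2, the muscle α2 chain, stood at 0.516, 0.442, 0.804 and 0.465 FPKM, below the filter, and LAMA1 was listed at 0 in all libraries.

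Of 13 network collagens, nidogens and proteoglycans, 7 were tested, with 0 lower and 1 higher and a median of 0.10. That 1 was HSPG2, which encodes perlecan, a heparan sulfate proteoglycan of basement membranes, at 9.72, 9.32, 11.7 and 14.1 FPKM (0.40, limma unadjusted P = 0.0476, adjusted p = 0.301). AGRN, the gene of agrin, a proteoglycan that binds laminin, gave 31.4, 31.4, 24.4 and 44.5 FPKM and lay on either side of the controls in the same order as LAMA5 and LAMB3. COL18A1, of the endostatin-bearing collagen XVIII, gave 17.2, 17.4, 21.2 and 14.8 FPKM, in the opposite order.

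All 12 receptors and hemidesmosome partners were tested, with 0 lower and 1 higher and a median of 0.06. ITGB4, the β4 integrin that joins α6 at hemidesmosomes, measured 84.9, 84.8, 123 and 111 FPKM, above both controls in both libraries (0.46, limma unadjusted P = 0.0188, adjusted p = 0.258). ITGB1, the β1 integrin common to several laminin receptors, was at 119.6, 119.0, 106.6 and 119.9 FPKM, and PLEC, the plakin that ties α6β4 to keratin, at 111.6, 113.2, 107.8 and 122.2 FPKM. After adjustment the group differences of ITGB1 and PLEC did not pass limma's test, and nor did that of ITGB4 (adjusted p = 0.778, 0.916 and 0.258). The α partner ITGA6, named after its values were seen, held 66.5, 65.8, 37.4 and 53.4 FPKM, under both controls in both libraries (−0.56, limma adjusted p = 0.311).

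Other basement membrane and linker proteins held 18 genes, of which 8 were tested, with 4 lower, 0 higher and a median of −0.40, beside 8.68% lower and 7.74% higher over all genes tested. The lower ones included PXDN, peroxidasin, which crosslinks collagen IV, at 4.95, 4.67, 2.54 and 2.32 FPKM (−0.76, limma unadjusted P = 0.0027, adjusted p = 0.242). TINAGL1, a secreted matrix protein, was at 40.2, 39.9, 23.8 and 28.0 FPKM (−0.62, limma adjusted p = 0.242), and FN1, fibronectin, at 2.86, 2.86, 1.40 and 1.78 FPKM (−0.58, limma adjusted p = 0.247). These 3 genes had both KIF26B siRNA libraries below both controls, as 27.8% of all genes tested did, but naming them by P favours that pattern. MATN2, a matrilin, was the fourth, at 1.76, 1.90, 1.35 and 1.09 FPKM. FBLN1, fibulin-1, gave 5.38, 5.21, 3.60 and 5.61 FPKM and FRAS1, of the Fraser complex, 7.55, 7.17, 11 and 7.74 FPKM.

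Among 21 processing, folding and shedding enzymes, 14 were tested, with 1 lower, 0 higher and a median of 0.00. PLOD2, a collagen lysyl hydroxylase, was the lower one, at 19.9, 20.5, 10.1 and 13.4 FPKM (−0.75, limma unadjusted P = 0.0121, adjusted p = 0.248). P4HA1, the catalytic α subunit of prolyl 4-hydroxylase, gave 48.7, 48.9, 41.0 and 91.4 FPKM, below the controls in replicate 1 and above them in replicate 2. P4HB, its β subunit, gave 160.4, 156.4, 171.4 and 220.4 FPKM, and PLOD1, another lysyl hydroxylase, 62.7, 65.8, 52.3 and 83.2 FPKM. After adjustment P4HA1, P4HB and PLOD1 did not pass limma's test between the groups, and nor did PLOD2 (adjusted p = 0.724, 0.443, 0.949 and 0.248).

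**Figure D5:**
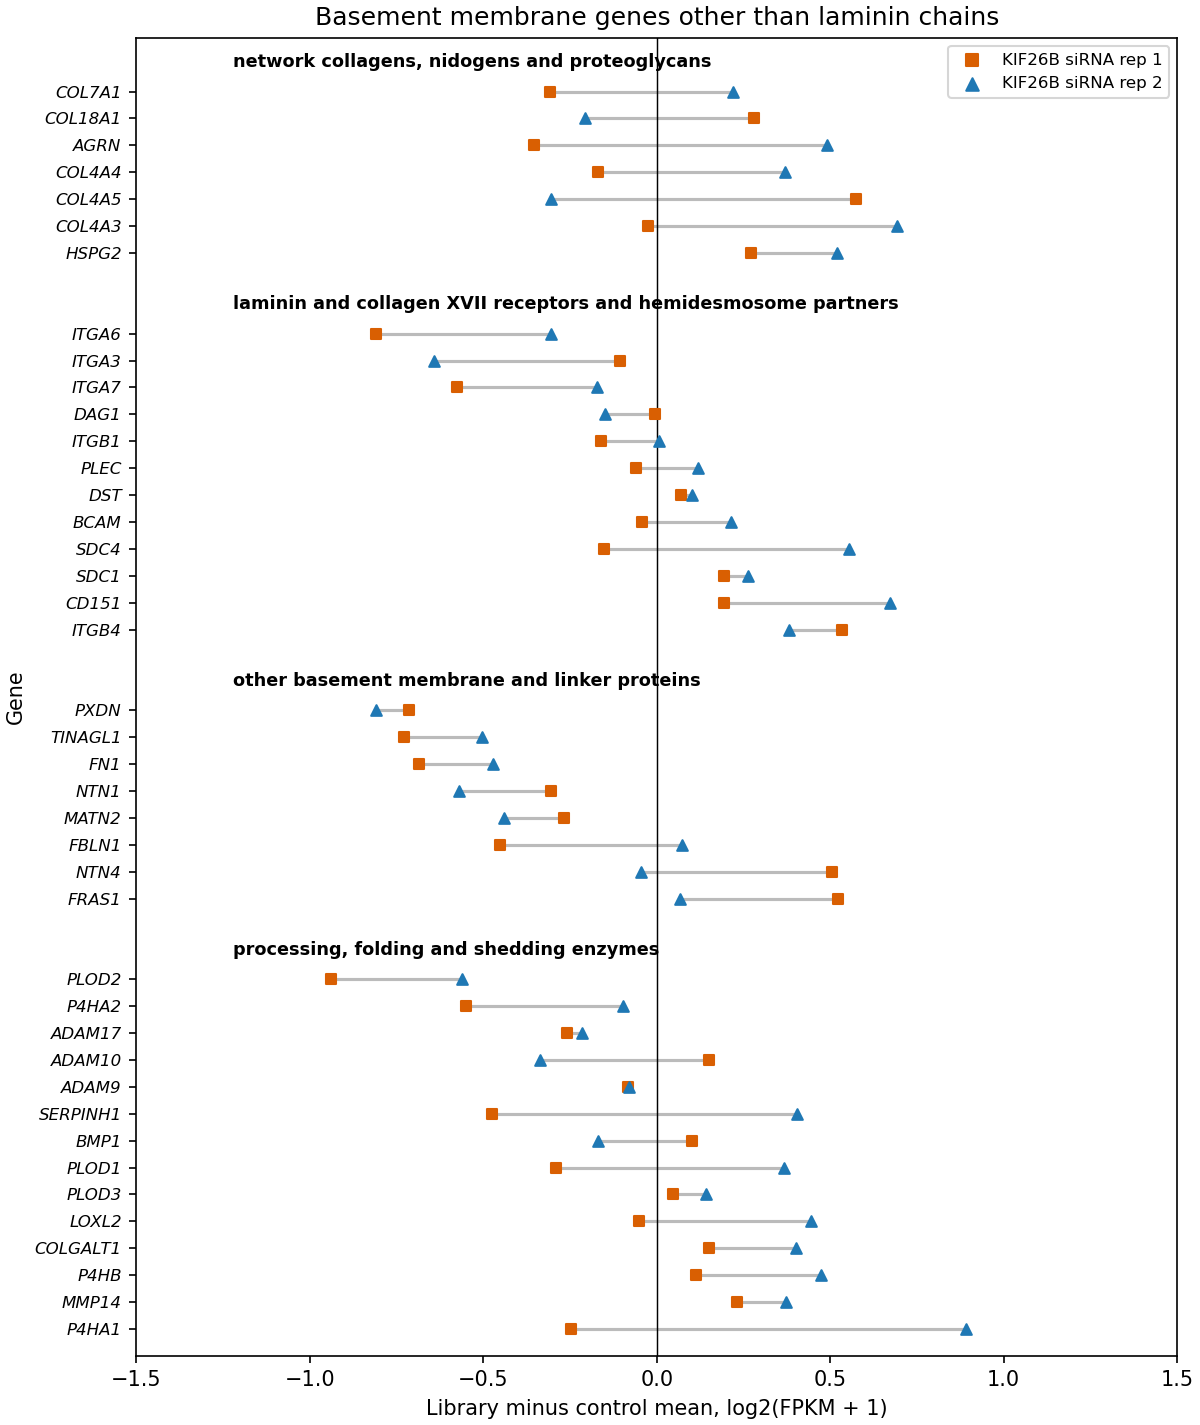
Difference of each KIF26B siRNA library from the control mean, log2(FPKM + 1), for the genes tested in the 4 lists without laminin chains, grouped by list, with a line joining the libraries. PXDN, TINAGL1, FN1 and PLOD2 lay left of 0 in both libraries, ITGB4 and HSPG2 right of 0 in both, and AGRN and P4HA1 crossed it.

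The genes most like LAMA3 and COL17A1, the members with the lowest and the highest log2 difference, were sought by Euclidean distance over the 4 libraries, on log2(FPKM + 1) minus the control mean, among 7239 protein-coding genes whose mean reached 5 FPKM. Nearest to LAMA3 was ASF1B, a histone chaperone, at 45.6, 44, 22.1 and 26.8 FPKM (distance 0.0818). DLGAP5, a mitotic spindle protein, followed at 30.0, 29.6, 14.1 and 18.1 FPKM (0.0957), and AURKA, a mitotic kinase, at 26.7, 25.5, 12.9 and 16.2 FPKM (0.108). Among the nearest to COL17A1 were PDCD11, a ribosome assembly factor, at 24.4, 24.8, 37.8 and 25.5 FPKM (0.00903), and SERPINE2, a protease inhibitor, at 12.6, 12.4, 19.2 and 12.9 FPKM (0.0389). LAMA3 and COL17A1 both sit at low levels, where 1 FPKM added before the log compresses differences, so a like profile there stands for a larger fold than in these more abundant genes.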

How the data were processed

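RNA was isolated with Trizol, poly(A) RNA was purified with oligo-dT beads and paired-end libraries were sequenced. The submitters' processing notes name HISAT2 2.0.5, featureCounts 1.5.0-p3 and build hg38, whereas the study's methods name hg19. The gene annotation is not given in the sources used here. The authors deposited 1 FPKM value per gene and library, with no replicate pooled, and the unit was read from the values: for 1-exon genes, 90.9% to 91.3% of values were whole multiples of 1 read. The length that made all 4 libraries whole, within 0.001 of a read, gave reads for 34637 of 34638 genes above 0, summing to 19169558 to 24850374 per library. For LAMB1 several lengths do so.

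Groups were taken from the sample labels. The members and gene lists were chosen with earlier results of these data known. Symbols (56513 of 58735 identifiers) and gene coordinates are from GENCODE v44 on GRCh37, promoters from RefSeq on GRCh38.p14. The 14523 genes whose mean reached 1 FPKM were tested with limma 3.58.1 in R 4.3.3 on log2(FPKM + 1), with no covariates and Benjamini-Hochberg adjustment over all of them, with 2 residual and 2.00 prior degrees of freedom. COL17A1 and LAMA2 were below this filter. P values of COL17A1 come from a fit without it. Read-rate ratios have exact (Clopper-Pearson) 95% intervals, scaled by the authors' library divisors. The model was tested on simulated data that gave both groups the same spread, unlike these libraries, so that test does not cover the spread seen here. Genes named were the 7 members, KIF26B, the 3 highest genes of each list, up to 3 tested genes per list with the largest absolute log2 difference at an unadjusted P below 0.05, and the 3 nearest profiles of the lowest and the highest member. Of the genes this rule names, 2 are not reported here. Other genes named were chosen after their values were seen. Alternatives were a replicate block, a pseudocount of 0.1, no filter, at least 1 FPKM in every library, median-of-ratios scaling, a variance trend, limma-voom on recovered reads, leaving out each library and, added after seeing the data, a GC and length correction. Python 3.11.15 with pandas 2.3.3, numpy 2.4.6, scipy 1.17.1 and matplotlib 3.10.9 was used.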

Additional observations from a re-analysis of the deposited data

How the results depend on the processing

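The comparison rests on 2 libraries per group of 1 cell line. Across genes, the deviations of same-number libraries had a correlation of −0.0031. The controls differed by only 2.37 times the squared difference of read counting alone, so this value could miss a pairing. The labels do not say whether libraries were prepared in pairs. With a replicate block, 861 genes were lower and 864 higher at an unadjusted P below 0.05, 0 passed after adjustment, 0 basement membrane genes outside the members were higher, and LAMA3 had an adjusted limma p of 0.391. Without a filter, 2186 genes were lower and 2192 higher, and 6 basement membrane genes were higher. LAMB3 changed sign with limma-voom (−0.0047), without control siRNA replicate 2 (−0.029) and with the GC and length correction (−0.013). A fit with 1 library left out takes its spread from the group that keeps 2, so genes called in it rest on that spread. Leaving out 1 library at a time gave log2 differences of −0.70 to 0.72 for LAMB3, −0.72 to 0.35 for LAMA5, −0.057 to 0.64 for LAMB2 and −0.60 to −0.19 for LAMC1. The count of genes lower then ran from 234 to 3435, of genes higher from 265 to 3326, and of genes past an adjusted p of 0.05 from 0 to 2507, the last without KIF26B siRNA replicate 1. The low end came without either control siRNA library, and without KIF26B siRNA replicate 2 there were 3253 lower and 2546 higher. Basement membrane genes lower ran from 0, without control siRNA replicate 1, to 16, without KIF26B siRNA replicate 2, and those higher from 0, without either control, to 16, without KIF26B siRNA replicate 1. LAMA3 lay between −1.42 and −0.72 in the 11 alternatives that gave it a value. In the 7 of these that kept every library, its adjusted limma p was 0.161 to 0.391. Requiring 1 FPKM in every library left LAMA3 and COL17A1 untested.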
